A study of Mus musculus with 8 samples.

Results

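The E14.5 lens fibers held 740 open domains of at least 3000 bp, out of 123743 open chromatin regions in their pooled peak list, and all 740 lay on chromosomes 1 to 19 and X. The domains were selected on peak width alone, so their width and height in the E14.5 fibers are given below as a description. They made up 0.598% of the 123673 fiber peaks on those chromosomes and held 4.93% of the bases those peaks cover, 3.02 Mb in all. The study mapped open chromatin by ATAC-seq in CD1 mice, which were not described as carrying any transgene or treatment, at the embryonic stage E14.5 and in newborns at P0.5. Lenses were micro-dissected into the epithelium and the fibers, several lenses went into each sample, and each of the 4 groups (fibers and epithelium at either stage) had 2 libraries. The peaks of each group were called on its 2 libraries together, so a domain has 1 value per group and no error between replicates. Intervals below are 95% intervals over the domains and cover counting error only.

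In the lens, epithelial cells line the front surface and divide, and those that pass the equator leave the cell cycle and elongate into fibers. Fibers fill with crystallins, the soluble proteins that make the lens transparent and refractive, build a membrane rich in the water channel Mip, and later lose their nuclei. In ATAC-seq, the Tn5 transposase inserts sequencing adaptors where DNA is not packed by nucleosomes, and the peak caller MACS2 piles up the sequenced fragments and joins neighbouring stretches of raised coverage into 1 peak. A promoter or an enhancer usually gives a short peak, and a wide peak means that raised fragment coverage ran along a longer stretch, in which the caller may have bridged short gaps.

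Sequences are given first for promoters of lens structural genes at the widest domains. The 6 promoters of crystallin genes or Mip with a start site inside 1 of the 20 widest domains are shown with the Maf half-site TGCTGA, or its reverse complement TCAGCA, in capitals. Maf factors are basic leucine zipper proteins needed for fiber elongation and crystallin expression. Each line holds the 150 bases before the RefSeq start site on GRCm38 (mm10), 5′ to 3′ on the strand of the gene. Of the 6 promoters, 5 held the half-site and Crygf did not, and it occurred in 10% of 32585 RefSeq promoters over the same 150 bases. These promoters were picked for their genes, so the count is a description.
Crybb1 promoter, chr5:112255670-112255819 (+): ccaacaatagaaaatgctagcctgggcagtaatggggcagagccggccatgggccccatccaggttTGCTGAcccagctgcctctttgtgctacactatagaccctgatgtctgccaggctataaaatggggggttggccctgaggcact
Cryaa promoter, chr17:31677781-31677930 (+): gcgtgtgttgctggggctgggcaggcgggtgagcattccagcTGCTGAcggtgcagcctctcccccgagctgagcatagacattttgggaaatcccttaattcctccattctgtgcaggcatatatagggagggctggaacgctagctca
Crybb3 promoter, chr5:113081585-113081734 (-): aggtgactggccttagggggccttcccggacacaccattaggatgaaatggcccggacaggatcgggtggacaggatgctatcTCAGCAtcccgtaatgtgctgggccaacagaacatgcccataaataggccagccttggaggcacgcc
Mip promoter, chr10:128225660-128225809 (+): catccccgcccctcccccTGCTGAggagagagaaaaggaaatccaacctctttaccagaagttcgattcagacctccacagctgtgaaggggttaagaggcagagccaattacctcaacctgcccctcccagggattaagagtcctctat
Cryba1 promoter, chr11:77725294-77725443 (-): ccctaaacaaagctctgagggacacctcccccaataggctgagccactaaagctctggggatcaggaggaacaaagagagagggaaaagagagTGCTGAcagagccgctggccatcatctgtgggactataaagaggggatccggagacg
Crygf promoter, chr1:65926372-65926521 (+): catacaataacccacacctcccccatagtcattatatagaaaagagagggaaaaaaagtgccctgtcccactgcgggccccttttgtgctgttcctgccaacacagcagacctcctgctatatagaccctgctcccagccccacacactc

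For contrast, the promoters of Cic, a transcriptional repressor, and Fat4, a protocadherin of planar polarity, come from wide domains of which each of the other 3 lists also covered at least 50% of the bases. They are shown with the Sp site GGGCGG or its reverse complement CCGCCC in capitals, which 28.8% of the RefSeq promoters held over 150 bases. Cic held 1 match and Fat4 none.
Cic promoter, chr7:25282029-25282178 (+): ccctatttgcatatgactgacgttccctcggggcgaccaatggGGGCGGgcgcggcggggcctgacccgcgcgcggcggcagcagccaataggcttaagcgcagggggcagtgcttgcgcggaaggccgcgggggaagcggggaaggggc
Fat4 promoter, chr3:38886790-38886939 (+): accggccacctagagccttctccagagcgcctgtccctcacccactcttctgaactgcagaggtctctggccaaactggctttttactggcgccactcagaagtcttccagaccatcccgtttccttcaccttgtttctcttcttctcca

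The 150 bases around the summit are shown for a pair of domains that held no start site and were covered to under 10% by each of the other 3 lists. The first lies between genes beside Bfsp1, which encodes the beaded filament protein filensin, and the second lies in an intron of Ndrg1, a gene regulated by growth arrest and hypoxia. Neither window held TGCTGA on either strand, and 20.6% of the 123673 fiber peaks held it within 75 bp of the summit.
Bfsp1 flank, chr2:143820673-143820822 (+): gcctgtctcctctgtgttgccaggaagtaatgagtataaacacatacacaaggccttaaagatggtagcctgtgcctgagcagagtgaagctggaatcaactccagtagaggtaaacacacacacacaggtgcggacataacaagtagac
Ndrg1 intron, chr15:66952557-66952706 (+): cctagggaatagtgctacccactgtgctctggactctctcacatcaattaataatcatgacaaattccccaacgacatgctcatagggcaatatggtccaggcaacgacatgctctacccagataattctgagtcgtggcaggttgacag

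The domains had a median width of 3625 bp, with quartiles of 3252 and 4304 bp. Of the 740, 257 reached 4000 bp, 94 reached 5000 bp, 42 reached 6000 bp and 10 reached 10000 bp. The widest was 31780 bp. Just inside the limit were a domain of 3002 bp between genes near Fgfr3 and domains of 3001 bp at Zc3h4 and at Cspg5. Just outside it were peaks of 2995 bp at Snx18, at Afdn and Tcte2, and at Ctif. Peaks of this width were few in the other groups, with 144 in E14.5 epithelium, 9 in P0.5 epithelium and 11 for P0.5 fibers. Of these, 134, 9 and 10 shared bases with a fiber domain. The median peak width was 298 bp in E14.5 fibers, 226 bp in E14.5 epithelium, 209 bp in P0.5 epithelium and 185 bp in P0.5 fibers, over lists of 123743, 100003, 58592 and 62995 peaks. The number of reads behind each list was not analysed here, and the part of depth in these widths and in the coverage values below was not tested.

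**Figure D1:**
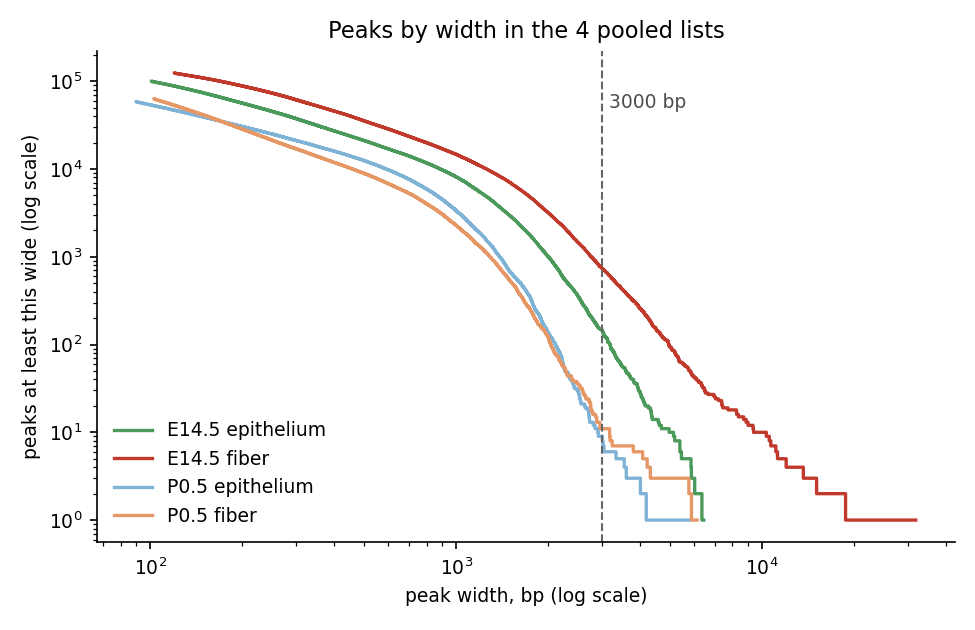
Number of peaks at least as wide as the value on the x axis (bp, log scale) in each of the 4 pooled lists (y axis, log scale), with the 3000 bp limit dashed. The E14.5 fiber line passes the limit at 740 peaks and ends at 31780 bp, while the widest E14.5 epithelium peak has 6444 bp.

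Crystallin genes stood at 7 of the 20 widest domains, namely Crybb1, Cryaa, Crygn, Cryba4, Crybb3, Cryba1 and Crygf. The widest domain ran over the whole of Crybb1, a beta crystallin, and into Tpst2, a Golgi enzyme that sulfates tyrosines, at chr5:112254280-112286059. E14.5 epithelium peaks covered 12.3% of it, P0.5 epithelium peaks 4.96% and P0.5 fiber peaks 33.0%. The P0.5 fiber bases came from 20 separate peaks, the widest piece of which had 2756 bp, so the single E14.5 fiber peak corresponded to a row of short peaks at P0.5. The P0.5 epithelium had 5 peaks there, the widest piece of 1041 bp.

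The second widest domain, at chr17:31676538-31695274, held the whole of Cryaa, the alpha A crystallin that is also a small heat shock protein, and ran on for a further stretch downstream. It had 18737 bp, of which E14.5 epithelium peaks covered 81.0%, P0.5 fiber peaks 48.9% and P0.5 epithelium peaks 12.4%. Cryaa thus differed from Crybb1 in that the E14.5 epithelium was open along most of the same stretch. The third widest, at chr4:119118575-119133640, lay over Slc2a1, which encodes the glucose transporter GLUT1, without its start site, and over the start site of the overlapping gene Gm12867. E14.5 epithelium peaks covered 65.4% of it, against 4.73% by P0.5 epithelium peaks and 2.55% by P0.5 fiber peaks, so it was nearly unmarked by peaks in both newborn groups.

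Among the other lens structural genes, Crygf, a gamma crystallin, had the domain of 7736 bp least shared with the other groups. No E14.5 or P0.5 epithelium base was called there and P0.5 fiber peaks covered 1.86%. At Mip, the domain of 9371 bp held the gene and the start of Timeless, and 43.5%, 11.1% and 30.2% of it was covered in E14.5 epithelium, P0.5 epithelium and P0.5 fibers. At Capn3, a calpain protease gene, a domain of 7436 bp within the gene body was covered to 13.7% and 4.02% in E14.5 and P0.5 epithelium, and P0.5 fibers had no peak in it.

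Not all of the 20 widest were at structural genes. Pax6, the homeobox regulator of eye development, had a domain of 10551 bp covered to 71.0%, 39.3% and 49.0% in E14.5 epithelium, P0.5 epithelium and P0.5 fibers. A further domain of 11088 bp lay 0.314 kb from Hmx1, a homeobox gene of the developing eye, with 62.2%, 12.6% and 18.7%. A domain of 13636 bp lay 35.1 kb from the closest gene, Ywhaz, with 26.4%, 15.9% and 19.3%. The remaining domains of the 20 widest were at Cxxc5, Ndrg1, Fgfrl1, Ap2a1 with Fuz, Malat1, Tnrc18 and Midn. Of these, Fgfrl1, an FGF receptor relative without a kinase domain, was covered more in P0.5 fibers (58.2%) than in E14.5 epithelium (41.2%). Malat1, a nuclear long non-coding RNA gene, was covered to 31% in E14.5 epithelium, 8.33% in P0.5 epithelium and 4.67% for P0.5 fibers.

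**Figure D2:**
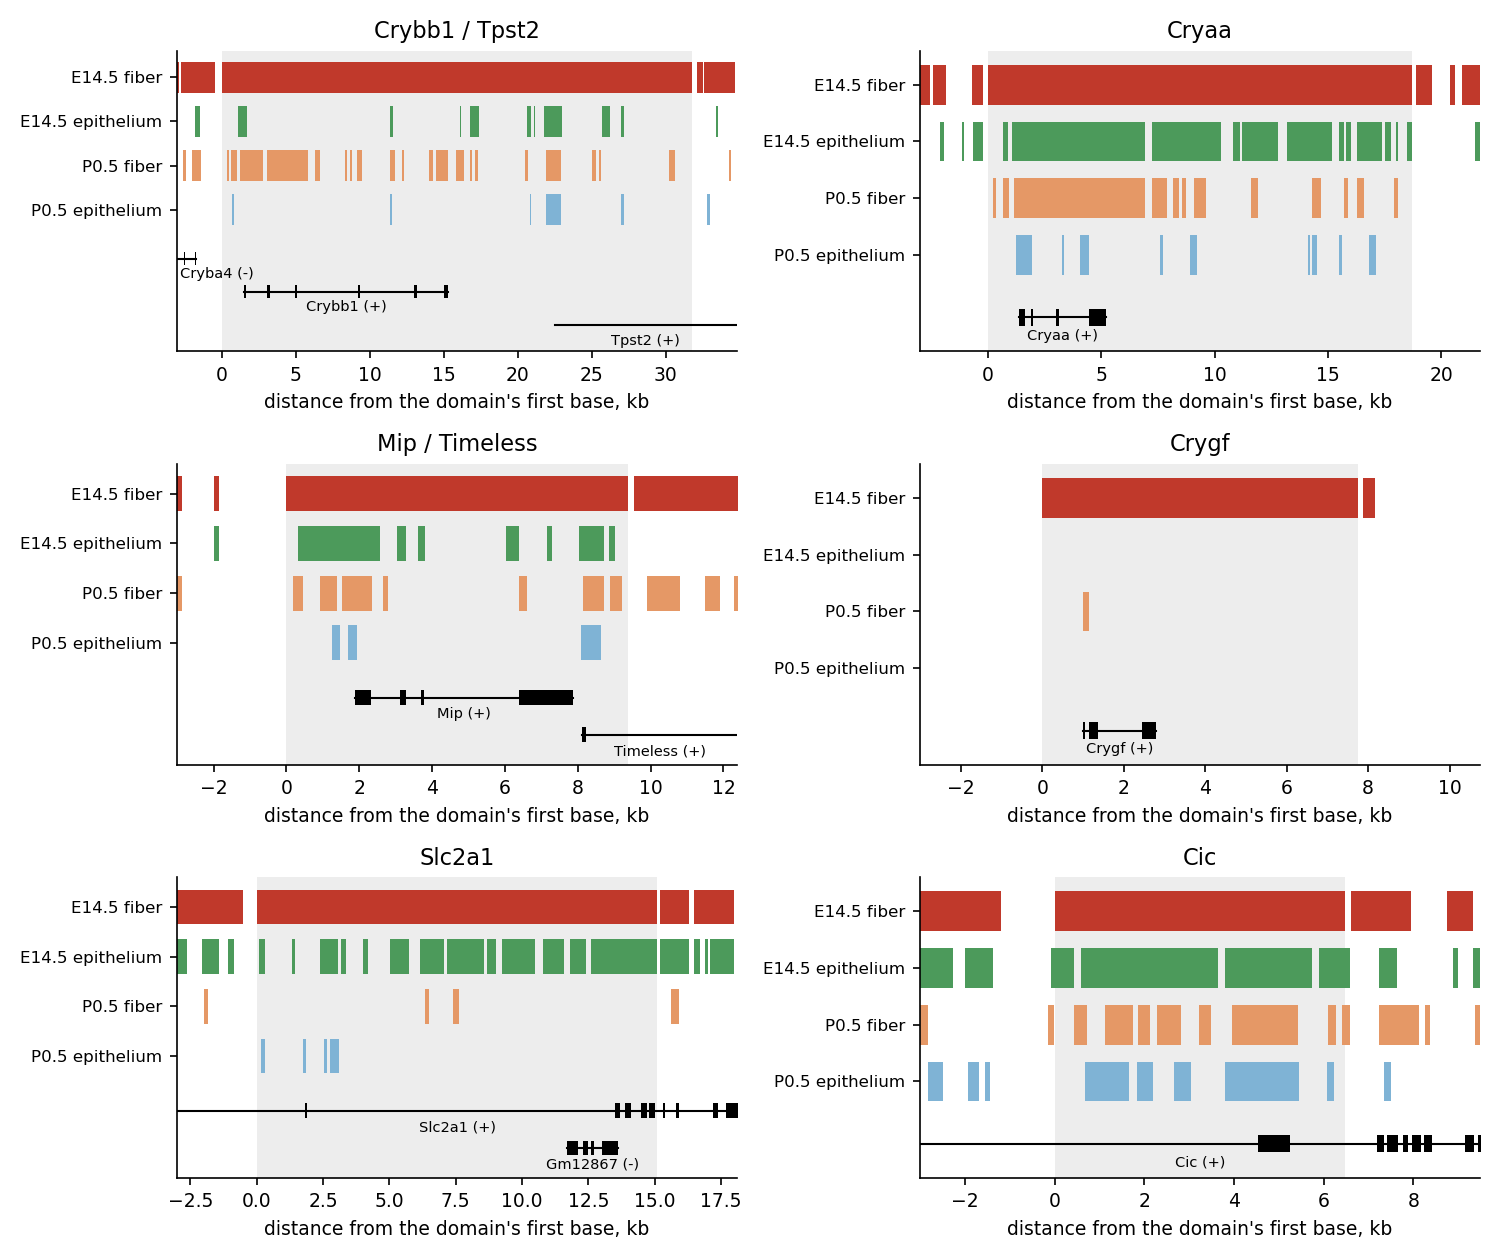
Peaks of the 4 pooled lists (coloured bars) at 6 domains, against the distance in kb from the first base of the domain; grey marks the domain, and gene bodies with exons are drawn in black with their strand. E14.5 fiber peaks fill each domain, with 20 short P0.5 fiber peaks in the Crybb1 domain, no epithelium peak in the Crygf domain, and peaks of all groups over most of the Cic domain.

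Over all 740 domains, E14.5 epithelium peaks covered a median of 75.1% of a domain (95% interval 72.6 to 77.1), P0.5 epithelium peaks 40.4% (37.7 to 42.6) and P0.5 fiber peaks 42.0% (40 to 43.4). With fiber peaks within 500 bp joined before the width limit, the P0.5 medians were 26.0% in epithelium and 25.8% for fibers, and their order also turned at a q value under 0.001 and at a limit of 2000 bp. E14.5 epithelium peaks touched 730 domains, where 50.2% of all fiber peaks were touched. P0.5 epithelium peaks touched 711 domains against 30.8% of all fiber peaks, and P0.5 fiber peaks touched 719 against 23.8%. A wide peak has more bases at which to be touched, so the share of its bases is the closer measure. At least 50% of the bases were covered in 603 domains by E14.5 epithelium peaks (81.5%, Wilson interval 78.5 to 84.1), where 36.8% of all fiber peaks reached that level. The same level was reached in 248 domains (33.5%) by P0.5 epithelium peaks and in 260 (35.1%) by P0.5 fiber peaks, with 16.6% and 9.04% of all fiber peaks. Most fiber peaks are far narrower than the domains, and beside wider ones the order changed. Against fiber peaks of 1000 to under 3000 bp, the share of domains at this level was 3.86 points higher in E14.5 epithelium (Newcombe interval 0.828 to 6.59), lower in P0.5 epithelium, where 47.9% of those peaks reached it (difference -14.4 points, -17.8 to -10.8), and not distinguishable in P0.5 fibers (1.01 points, -2.44 to 4.60). Against fiber peaks of 2000 to under 3000 bp the domains were lower in all 3 lists, with differences of -3.86 points (-7.11 to -0.847) in E14.5 epithelium, -15.7 points (-19.6 to -11.7) in P0.5 epithelium and -6.90 points (-10.8 to -2.89) in P0.5 fibers.

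Within the domains, the newborn groups were open in shorter pieces. The widest covered piece of a domain had a median of 1968 bp in E14.5 epithelium, 914 bp in P0.5 epithelium and 912 bp in P0.5 fibers. Of the 740 domains, 583, 555 and 612 held 2 or more separate peaks of these lists. E14.5 epithelium peaks covered more of a domain than P0.5 epithelium peaks in 722 of the 731 domains with unequal amounts (98.8%, 97.7 to 99.4).

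**Figure D3:**
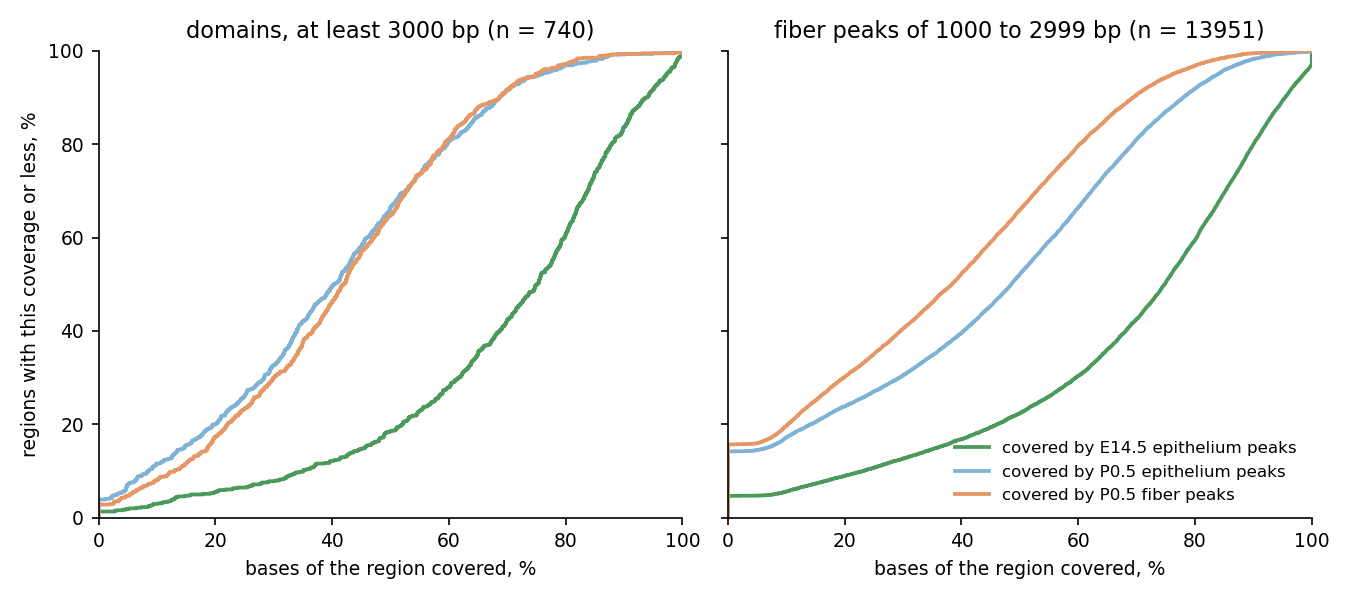
Cumulative share of regions (y axis, %) by the share of their bases covered by the peaks of each other list (x axis, %), for the 740 domains on the left and the 13951 E14.5 fiber peaks of 1000 to under 3000 bp on the right. E14.5 epithelium lies farthest right in both, and the P0.5 fiber and P0.5 epithelium lines lie together for the domains but apart for the narrower peaks, where P0.5 epithelium covered more.

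At P0.5, fiber peaks covered more of a domain than epithelium peaks did in 394 of 728 domains with unequal amounts (54.1%, 50.5 to 57.7), a small majority that turned to 46.6% when covering peaks were limited to a q value under 0.001. Narrower regions leaned to P0.5 epithelium instead. Among E14.5 fiber peaks of 1000 to under 3000 bp, P0.5 fibers covered more in 32.3% of 12832, and the domains exceeded that share by 21.9 percentage points (Newcombe interval 18.1 to 25.5). The excess was 19.8 points (16.1 to 23.5) at the stricter q value, 24.6 points (20.3 to 28.9) over start sites and 19 points (11.5 to 25.9) elsewhere. Among the 20 widest domains, P0.5 fibers covered more than P0.5 epithelium in 17.

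By size of the gap, the domains leaning most to P0.5 fibers included Crybb3, a beta crystallin (57.0% against 12.6%), Wnt7b, a Wnt ligand (43.6% against 6.82%), Cryaa (48.9% against 12.4%) and both parts of the Mir1a-1 host gene, the larger covered to 36.7% by P0.5 fiber peaks and without a P0.5 epithelium peak. The widest gap toward P0.5 epithelium was at Paupar, the non-coding RNA gene upstream of Pax6 (10.1% in P0.5 fibers against 75.6% in P0.5 epithelium). Large gaps that way also stood at the receptor kinase gene Erbb4 (14.2% against 58.2%), the forkhead gene Foxp1 (26.5% against 70.5%), Nes, which encodes the intermediate filament nestin (10.4% against 49.9%) and the immediate early gene Ier2 (9.97% against 48.7%). Gaps at Hivep2 (39.9% against 87.5%) and Actg1 (21.3% against 66.3%) were wider than at Erbb4. Those at Bhlhe40 (33.0% against 73.1%) and Myc (47.4% against 87.2%) were wider than at Nes. These names were picked with the values in view. Of the 2 domains at Pax6 itself, the wider leaned to P0.5 fibers (49.0% against 39.3%) and the other, of 4661 bp, to P0.5 epithelium (13.9% against 19.6%).

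Domains at start sites were covered more by the other lists than domains elsewhere. Of the 740, 573 (77.4%) lay at a promoter, within 2 kb of a RefSeq start site, 126 (17%) in a gene body, 38 (5.14%) within 50 kb of a gene and 3 farther out. Of all fiber peaks, 20.1% lay at a promoter, 54.3% in a gene body and 19.7% within 50 kb of a gene. Domains over a start site numbered 550 (74.3%, 71.1 to 77.3), against 61.3% of the narrower fiber peaks, 13.0 points fewer (9.62 to 16.1), and 11.2% of all fiber peaks. A wide peak has more bases in which a start site can fall, and the part of width in these differences was not tested. The 550 were covered to a median of 79.2% in E14.5 epithelium, 45.5% in P0.5 epithelium and 46.3% for P0.5 fibers. The other 190 were covered to 54.4%, 18.1% and 20.9%. The intervals of the medians of these sets do not overlap in any of the 3 lists (77.8 to 80.5 against 48.1 to 59.0, 43.6 to 47.8 against 15.7 to 21, and 44.2 to 48.2 against 18.7 to 24.8).

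CpG content moved with this coverage. The observed over expected CpG ratio had a median of 0.525 in the domains and 0.611 in the narrower peaks, and 0.595 and 0.259 in the domains with and without a start site. From the 247 domains poorest in CpG, through 246 between, to the 247 richest, the median coverage went from 52.2% through 76.5% to 84.0% in E14.5 epithelium, from 17.8% through 42.5% to 57.2% in P0.5 epithelium and from 23.3% through 43.3% to 55.6% in P0.5 fibers. Across the 740 domains, which share libraries and peak calling, Pearson's r of the ratio with coverage was 0.620, 0.726 and 0.611 and Spearman's rank correlation 0.593, 0.733 and 0.610. The 20 widest were CpG-poor, with a median ratio of 0.248.

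In 422 domains all start sites belonged to 1 gene. Of these, 325 (77.0%, 72.8 to 80.8) reached farther downstream of the start site than upstream, with medians of 2448 bp (2376 to 2543) into the gene and 1333 bp (1216 to 1389) before it. This was also true of narrower fiber peaks, of which 77.9% did so, and the difference of -0.843 points (-5.20 to 3.04) included 0. The longest reach was 17343 bp, at Cryaa, which runs past the end of the gene. At 2 kb into the gene, E14.5 fiber peaks were present at 74.4% of the 422, E14.5 epithelium peaks at 44.5%, P0.5 fiber peaks at 20.1% and P0.5 epithelium peaks at 16.6%. At the start site itself the shares were 100%, 95.7%, 84.4% and 84.1%. The domains were chosen for width in E14.5 fibers, so only the other lists carry information here. E14.5 epithelium thus stood above both P0.5 lists at the start site and at 2 kb.

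**Figure D4:**
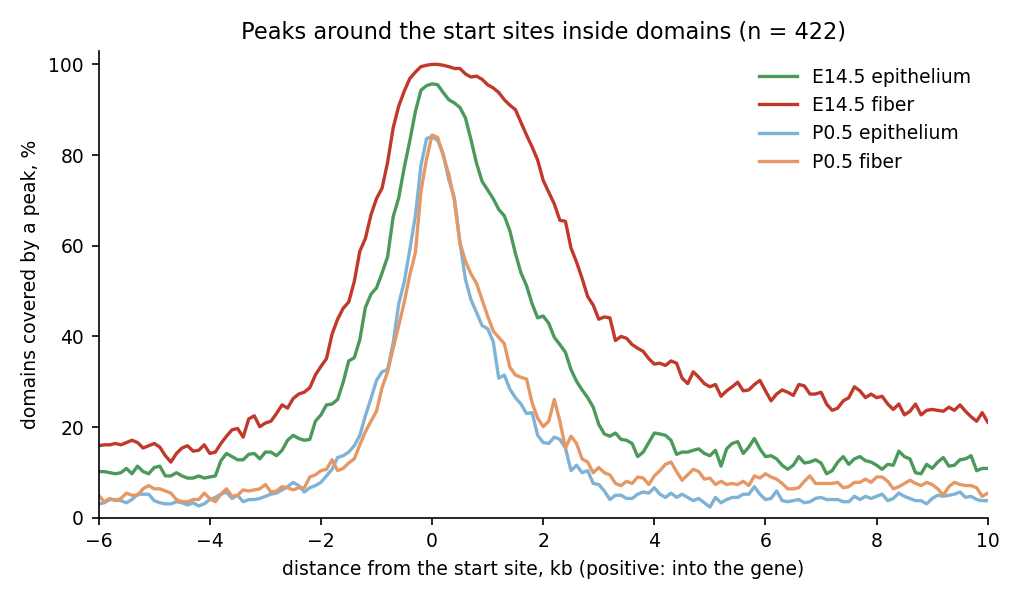
Share of 422 domains with start sites of 1 gene that have a peak of each list (y axis, %) at each distance from the start site nearest the summit (x axis, kb, positive into the gene, in steps of 100 bp). All 4 lines peak at the start site, between 84.1% and 100%, and those of both P0.5 lists are the narrowest.

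Few protein-coding genes were open from end to end. Of 20923 with a curated model, 698 (3.34%) had a base inside a domain, 579 a start site, 123 (0.588%) at least 50% of the gene body, and 28 the whole gene body. The median length of the 28 was 2082 bp, against 16778 bp for all protein-coding genes, and 9 of them were crystallin genes. The 10 longest were Crybb1 (13.8 kb), Cryba1, Mip, Crybb3, Fuz, a planar polarity gene of cilia, Cryaa, Arhgdia, Gm20346, Cryga and Cryge. Among the shorter ones were the stress genes Gadd45b, Gadd45g and Ddit4, the immediate early gene Ier2, the ribosomal protein gene Rpl36 and the histone genes H2ac20 and H2ac21. Over the 28 gene bodies, the median covered was 77.3% in E14.5 epithelium (37.5 to 92.0), 19.3% in P0.5 epithelium (8.32 to 39.8) and 33.6% for P0.5 fibers (16.5 to 47.0). Over all protein-coding genes it was 2.26%, 1.22% and 1.09%, and a peak at the start site fills more of a short gene.

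Of the 16 crystallin genes, 13 had at least 50% of the gene body inside domains, 11 had a start site inside one and 9 were wholly inside. The exceptions were Crybb2, Crygc and Crygs, of which Crygc was covered to 82.2% by E14.5 fiber peaks too narrow to be domains, Crygs to 19.3% and Crybb2 to 9.99%. With the first 2 kb after every start site removed, and genes with under 1 kb left set aside, 8 of the 10 left had at least 50% of the rest inside domains, and the other two were Crybb2 and Crygs, which no domain touched before trimming either. The other lists, which the selection did not use, covered a median of 15.1% of a crystallin gene body in E14.5 epithelium, 4.34% in P0.5 epithelium and 20.2% for P0.5 fibers. The medians over all protein-coding genes were 2.26%, 1.22% and 1.09%. Cryaa was covered to 100% by E14.5 epithelium and P0.5 fiber peaks alike and to 26.2% by P0.5 epithelium peaks. Crybb1 was covered to 3.0%, 47.0% and 0.908%, Crybb3 to 60.3%, 71.2% and 8.32%, and Cryba4 to 0.664%, 29.6% and 2.26%, in E14.5 epithelium, P0.5 fibers and P0.5 epithelium. Cryab, the alpha B crystallin, was covered more in E14.5 epithelium (42.4%) than in P0.5 fibers (17.8%), and it was 20.5% in P0.5 epithelium. P0.5 fibers thus exceeded P0.5 epithelium at every crystallin gene but Cryab, and Crygs, which neither covered. The gamma crystallin genes Cryga to Crygf are close copies of one another, and reads that fit several of them may have been placed on any.

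The 14 domains over a crystallin gene were covered to a median of 12.6% in E14.5 epithelium (6.45 to 52.4), 5.78% in P0.5 epithelium (0 to 12.6) and 19.8% for P0.5 fibers (12.1 to 33.0). The 16 over a gene of a lens transcription factor were covered to 80.6% (71.0 to 93.5), 40.8% (33.9 to 58.3) and 46.1% (25.9 to 64.9). The 20 over a gene of the fiber membrane or cytoskeleton lay between, with 62.5% (43.5 to 75.8), 16.6% (6.17 to 43.1) and 25.3% (7.05 to 54.3). The members of these lists were chosen with earlier results of these data known, and several crystallin domains are neighbours. The medians are therefore a description, and their intervals do not test the sets against each other. The sets were not matched for CpG content or start sites.

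**Figure D5:**
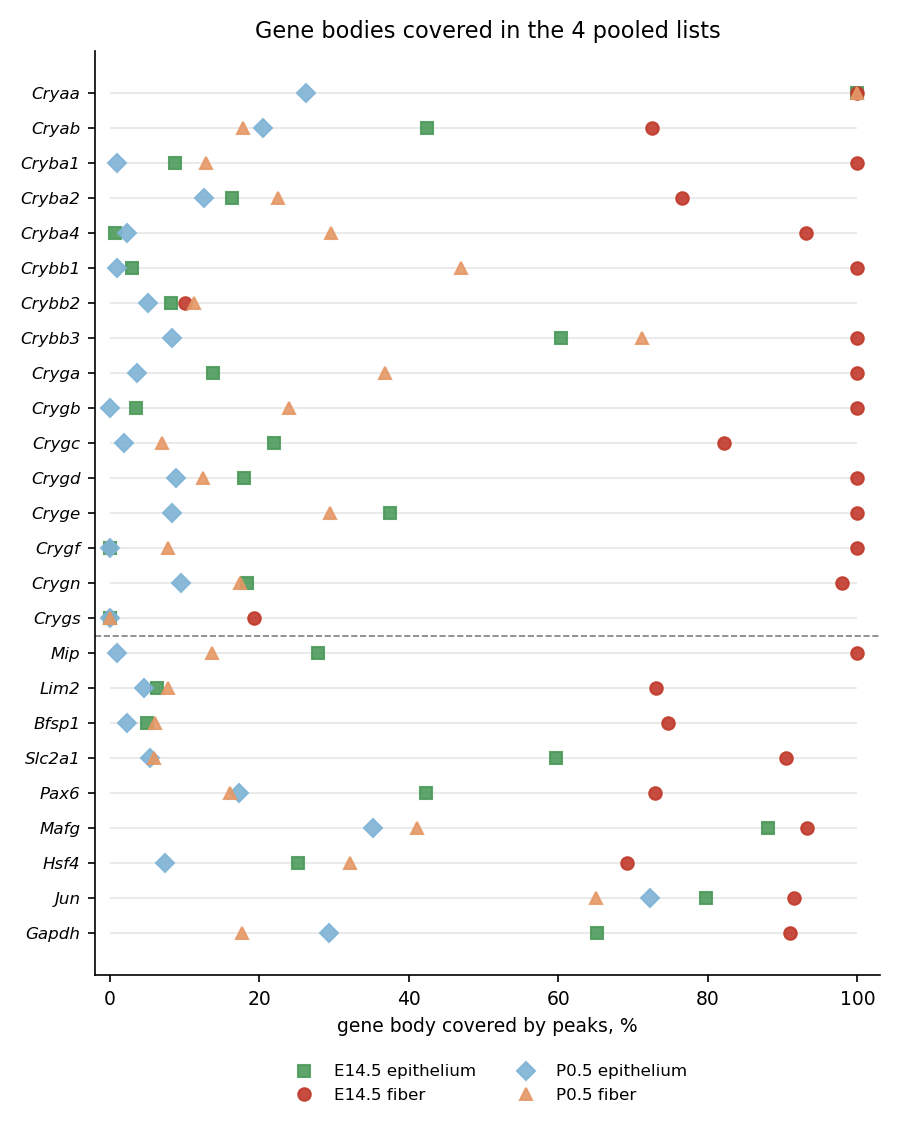
Percentage of bases of the gene body under a peak in each list (x axis, %) for the 16 crystallin genes, above the dashed line, and 9 other genes of the lens and metabolism lists below it. E14.5 fiber points reach 100% for 9 crystallin genes and Mip, while Crybb2 and Crygs stay at 9.99% and 19.3%, and Jun is covered in all 4 lists.

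For the other lists, where 3.34% of all protein-coding genes had a base inside a domain, the counts were 15 of 30 lens transcription factors, 8 of 17 genes of the fiber membrane and junctions, 9 of 17 of the fiber cytoskeleton and 5 of 21 of FGF and BMP signalling. They were 4 of 16 for glucose uptake and glycolysis, 3 of 15 for Notch signalling and cell cycle exit, 2 of 18 for organelle loss and autophagy, 1 of 8 for RNA-binding proteins of cataract genes, 1 of 17 for redox enzymes and chaperones and 0 of 20 ribosomal protein genes. The members were chosen with these results known and the fiber peaks chose the domains, so the counts describe the domains only.

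Among the transcription factors, Mafg, a small Maf partner, had 93.2% of its gene body inside a domain, and E14.5 epithelium, P0.5 fiber and P0.5 epithelium peaks covered 88.0%, 41.1% and 35.2% of it. Hsf4, the heat shock factor of the fiber, had 53.5% inside, with 25.1%, 32.1% and 7.30% covered. Prox1, a homeobox factor of fiber elongation, had 9.57% inside, from a domain of 5053 bp in the gene body that E14.5 epithelium peaks covered to 32.4%, P0.5 epithelium peaks to 13.0% and P0.5 fiber peaks to 0. The AP-1 gene Jun was covered to 79.8%, 65.0% and 72.3%, in the same order of groups as Mafg.

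Of the membrane and cytoskeleton genes, Lim2, which encodes the fiber membrane protein MP20, had 52.2% of its body inside a domain of 3126 bp that E14.5 epithelium peaks did not touch and that P0.5 peaks covered to 6.17% in epithelium and 5.28% in fibers. Bfsp1 held a domain of 3022 bp and lay 0.865 kb from another of 6370 bp, covered to 0 in both epithelium lists and to 2.67% in P0.5 fibers. A domain of 3070 bp in Sptbn1, a spectrin gene, was covered to 5.18%, 0 and 3.97% in E14.5 epithelium, P0.5 epithelium and P0.5 fibers. Of the glycolysis genes, Gapdh had 80.2% of its body inside domains and was covered to 65.2%, 29.3% and 17.6% in the same order.

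The domains that the other groups hardly shared were few. Each of the other 3 lists covered under 10% of 16 domains (2.16%), where 44.9% of all fiber peaks and 3.71% of those of 1000 to under 3000 bp were at this level. Against fiber peaks of 2000 to under 3000 bp alone, the difference had an interval that included 0 (0.890 points, -0.0916 to 2.26). No base was covered by any list in 3 domains (0.405%), against 44.1% of all fiber peaks and 2.82% of those of 1000 to under 3000 bp, and the difference from fiber peaks of 2000 to under 3000 bp (0.657%) again included 0 (-0.251 points, -0.739 to 0.568). The 3 were in Ndrg1 (4371 bp), 29.4 kb from Ywhaz (4326 bp) and 3.38 kb from Tjp1, the tight junction gene (3436 bp). Besides those at Crygf, Lim2, Sptbn1 and beside Bfsp1, the 16 included domains at Cryba2, a beta crystallin gene, at Iqsec1, at Tpst2, at Pgam2, which encodes the muscle form of phosphoglycerate mutase, and 2.99 kb from Maf, all picked with the values in view. Of the 16, those at Crygf, Tpst2 and Pgam2 held a start site. At the other end, 172 domains (23.2%) were covered to at least 50% by each list, against 5.17% of all fiber peaks but 28.8% of those of 1000 to under 3000 bp (difference -5.51 points, -8.51 to -2.25). Among fiber peaks of 2000 to under 3000 bp the share was 34.0% (difference -10.8 points, -14.3 to -7.11). The widest of the 172 domains were at Pcdh7, a protocadherin gene (7044 bp), Cic (6483 bp), Fat4 (6195 bp), Irf2bp2, a transcriptional corepressor gene (6066 bp) and Bbc3, which encodes the apoptosis regulator PUMA (5907 bp).

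Of the 740 domains, 163 (22.0%) had another domain within 10 kb, in 71 groups, 16 of which held 3 or more. The group at Cryba4, Crybb1 and Tpst2 held 4 domains over 64.9 kb, 82.0% of which was inside them. The group at Hmx1 held 5 over 42.3 kb (75.4%), that at Pax6 3 over 24.2 kb (76.8%), that at Sox1, an HMG box factor of fiber differentiation, 4 over 27.1 kb (63.4%) and that at Six3, a homeobox gene of eye formation, 3 over 20.1 kb (83.0%).

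The summit of a domain, its base of highest signal, was within 500 bp of a start site in 416 domains (56.2%). It lay inside an E14.5 epithelium peak in 95.9% of domains, a P0.5 epithelium peak in 89.5% and a P0.5 fiber peak in 88.1%. Among fiber peaks of 1000 to under 3000 bp the shares were 91.2%, 79.3% and 71.8%, lower by 4.73 points (3.0 to 6.03), 10.1 points (7.60 to 12.2) and 16.3 points (13.6 to 18.5). Against fiber peaks of 2000 to under 3000 bp alone, all 3 differences included 0, at -1.02, 0.133 and 2.68 points. Without a start site, the domains exceeded the narrower peaks by 9.48 (3.97 to 13.5), 17.6 (10.6 to 23.9) and 27.6 points (20.5 to 33.9), and over start sites by -0.548 (-1.89 to 0.137), -0.475 (-2.38 to 0.815) and 3.52 points (1.28 to 5.18).

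Of 8 motifs searched on both strands in the 200 bp around the summit, Sp (GGGCGG) was the most frequent, in 58.0% of domains (54.4 to 61.5), 49.4% of the narrower peaks and 13.1% of all fiber peaks. Ets (CCGGAAG) was in 5.14% of domains and 9.83% of the narrower peaks, a difference of -4.69 points (-6.15 to -2.79), and in 2.78% of all fiber peaks. Sox (AACAAT) was in 5.14% and 3.58%, 1.55 points more (0.143 to 3.41), with 7.59% of all fiber peaks, and this call was lost in a window of 400 bp (0.562 points) and without start sites (2.06 points, -1.18 to 6.92). The differences included 0 for Maf (TGCTGA, 15.3% and 17%, with 24.7% of all fiber peaks), AP-1 (TGANTCA, 2.97% and 3.91%, 6.77%), Tead (GGAATG, 8.92% and 8.42%, 12.5%), Pitx (TAATCC, 3.24% and 3.47%, 5.85%) and Hsf (GAANNTTC, 1.89% and 2.73%, 3.94%). The Sp difference was 0.237 points (-3.87 to 4.09) over start sites, 7.40 points (1.56 to 14.2) elsewhere, and -2.86 points against fiber peaks of 2000 to under 3000 bp. That of Ets was -7.97 points (-9.90 to -5.47) over start sites and included 0 elsewhere. Tead passed over start sites (3.32 points, 1.16 to 6.04), and Maf in a window of 400 bp (-4.05 points). Maf stood in 26.3% of the domains without a start site and 11.5% of those with one, and the narrower peaks had 29.1% and 9.35%. A match is only these letters in a window.

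A few domains stood apart by their sequence. The domain at chr17:39842997-39848875 lay 102 kb from the nearest gene among the curated models used here, which may not hold every gene. It had a fold enrichment of 2739 by the authors' peak caller, the highest of the list, and was covered to at least 99.7% in each of the other lists. The domain at chr1:24611535-24615161 had a fold of 281, and 98.5% of its 31-base words occur in the mitochondrial genome, a match no other domain showed at even 1 word. A pair of domains at Sfi1 was covered to between 97.0% and 100% in each of the 3 lists. The part of multicopy sequence in these domains was not tested. Without the first 2, the median coverage differed from that of all 740 by less than its interval in each list. Chromosome X held 4 domains, 0.541% of them, and 1.23% of the fiber peaks.

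Marker genes of fibers, epithelium and other cells were set beside the lists. The E14.5 fiber list chose the domains, and the markers were chosen with earlier results of these data known. The values are therefore a description and no check of the fiber label. The 14 fiber markers had a median of 91.1% of the gene body covered in E14.5 fibers, 7.96% in E14.5 epithelium, 2.49% in P0.5 epithelium and 11.9% for P0.5 fibers. Over all protein-coding genes these medians were 3.58%, 2.26%, 1.22% and 1.09%. The 8 epithelium markers had 26.3% in E14.5 fibers and 13.7% in E14.5 epithelium, the reverse of their label, and 7.67% in P0.5 epithelium and 5.19% for P0.5 fibers. Domains touched Pax6 and Sfrp1 among them. Domains touched 0 of 7 endothelium, 0 of 6 macrophage, 0 of 6 erythroid, 0 of 6 neural retina and 0 of 4 surface ectoderm and cornea markers, where 3.34% of all protein-coding genes were touched, so that counts of 0 in lists this short say little. E14.5 fibers had a promoter peak at 5, 1, 2, 5 and 0 of them, and at 71.4% of all protein-coding genes. The part of other cells in the domains was not tested.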

How the data were processed

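ATAC-seq peak lists of lens epithelium and fibers at E14.5 and P0.5 were analysed, 1 list per group, each called on 2 libraries together. Per the submitters' processing notes and the methods of the study, reads were trimmed (Trim Galore 0.4.1), mapped to mm10 (Bowtie2 2.3.3.1) and cleared of mitochondrial and duplicate reads (SAMtools 1.2, Picard 2.1.1), and peaks were called with MACS2 2.1 at a q value of 0.05. The deposited lists give each peak's start, end and summit, its fold enrichment (a ratio of pooled reads at the summit to local background) and its −log10 p and −log10 q values, as the authors' peak caller wrote them. The deposited lists hold no read counts, so depth is unknown from them and no test between libraries was possible. No blacklist of artefact regions was applied here.

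Domains were E14.5 fiber peaks of at least 3000 bp on chromosomes 1 to 19 and X. The bases of each covered by the other lists were counted and set beside E14.5 fiber peaks of 1000 to under 3000 bp. Shares carry Wilson intervals, differences of shares Newcombe intervals and medians order-statistic intervals, all at 95%. Genes were curated RefSeq transcripts of GRCm38 (45756 transcripts of 26180 genes). All genes of the lists matched a model. Named genes were those at the 20 widest domains, list members, the 10 longest genes wholly inside a domain, those at the widest domains covered to 0 or to at least 50% by each other list, and those next to the width limit. Others are named as chosen after seeing their values. The domains and gene lists were chosen with earlier results of these data known. Python 3.11.15, numpy 2.4.6, pandas 2.3.3, scipy 1.17.1, pysam 0.24.0 and samtools 1.23.1 were used, and the interval functions were tested on simulated data. Alternatives were stricter or equal-sized covering lists, other width limits, joined peaks, predicted transcripts, wider motif windows and domains poor in repeats.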

Additional observations from a re-analysis of the deposited data

How the results depend on the processing

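No paired analysis was possible because each list pools both libraries of its group, and for the same reason no replicate was left out. Intervals therefore say nothing of variation between animals. Depth is unknown from the lists, and its part in the differences between groups was not tested.

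With domains of at least 2000 bp there were 3176, with at least 5000 bp 94, and with fiber peaks joined at 500 bp 2245. The median coverage by E14.5 epithelium peaks became 70.4% with equal numbers of peaks, 67.8% at 5000 bp and 52.5% after joining. By P0.5 epithelium peaks it became 47.5% at 2000 bp, 29.4% at 5000 bp and 26.0% after joining, and by P0.5 fiber peaks 37.6% at a q value under 0.001, 44.4% at 2000 bp, 38.2% at 5000 bp and 25.8% after joining. The P0.5 lists changed places at the q value under 0.001 (39.4% in epithelium), at 2000 bp and after joining, and E14.5 epithelium stayed highest in each of these settings. Domains with more coverage in P0.5 fibers than in P0.5 epithelium were 46.6% at a q value under 0.001, a reversal, and 53.4% with equal numbers of peaks. The cause was not tested.

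Summit differences against fiber peaks of 2000 to under 3000 bp were -1.02, 0.133 and 2.68 points for E14.5 epithelium, P0.5 epithelium and P0.5 fibers, and over start sites, a split added after seeing the data, -0.548 and -0.475 for the epithelium lists. Start sites lay in 79.7% of domains with predicted transcripts. Genes wholly inside numbered 44 at 2000 bp and 13 at 5000 bp, and 8 crystallin genes passed without their first 2 kb.

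For motifs, in percentage points of domains minus narrower peaks, the 400 bp window gave -4.05 for Maf, 0.562 for Sox, 0.460 for AP-1, -0.897 for Tead and 0.392 for Hsf. Against fiber peaks of 2000 to under 3000 bp the values were 1.44 for Maf, 0.0413 for Pitx and -2.86 for Sp. Over start sites they were 2.11 for Maf, 0.377 for AP-1, 3.32 for Tead, 0.834 for Pitx and 0.237 for Sp, and elsewhere 2.06 for Sox, -3.96 for Tead and -1.34 for Ets. The Sox call was lost in the 400 bp window and without start sites, that of Sp over start sites and that of Ets elsewhere, and Sp turned direction against fiber peaks of 2000 to under 3000 bp, while Maf in the 400 bp window and Tead over start sites newly excluded 0. Of 90 alternative values, 50 kept their direction and their side of the threshold or stayed within their interval or 1.5 times the count.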
